A study of Mus musculus with 6 samples.

Results

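The variable segments of the immunoglobulin kappa light chain (Igkv) were examined in spleen RNA-seq of NOD.B10 and BL/10 mice. Members were all genes whose symbol begins with Igkv and that had at least 10 counts summed over the 6 libraries. Of 160 Igkv genes in the table, 124 met this rule, and they comprised 100 of 100 segments annotated as V genes and 24 of 60 annotated as V pseudogenes. The other 36 were pseudogenes, of which 22 had no count at all. At the limit, Igkv11-114 and Igkv8-22 were included with 10 counts each, and Igkv17-134 was left out with 9. All members lie on chromosome 6 between 67555497 and 70704177 (GRCm38), 46 on the plus and 78 on the minus strand, between 22.3 and 3170 kb from Igkc, the single constant region gene of the locus.

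NOD.B10 (NOD.B10Sn-H2b/J) mice carry the NOD background with the H2b haplotype and serve as a model of primary Sjögren's syndrome (pSS), and BL/10 (C57BL10/SnJ) mice are the healthy controls. Spleens of 3 females per strain were sequenced, each library being labelled a biological replicate. By the labels, BL/10 replicates 2 and 3 were 36 weeks old and the remaining libraries 26 weeks, so age was partly confounded with strain, although the paper describes age-matched groups of a single age. Strain was taken from the descriptions and column names. Titles and strain fields name the opposite strain in all 6 samples, and every direction given here would be reversed under them.

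Each B cell joins 1 V kappa segment to 1 of the J kappa segments in its own DNA, and the joined exon is transcribed and spliced to Igkc. The V segment encodes most of the antigen-contacting part of the light chain, so the reads over a segment follow how many B cells and plasma cells have chosen it and how much light chain RNA each of them makes. In whole spleen, fewer cells using a segment and less RNA per cell cannot be told apart. Plasma cells carry far more immunoglobulin RNA than resting B cells, and a single expanded clone can therefore weigh heavily on its segment. Segments annotated as pseudogenes in the reference are held not to encode a working light chain, although some can still be rearranged and transcribed. Whether this holds for the NOD.B10 alleles was not examined.

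The segments are close copies of each other, which matters for 50-base reads that were counted only when assigned to a single gene. The closest other Igkv segment was between 68.9% and 98.8% identical (median 93.8%), and 54 of 124 members had one at 95% identity or more. A median of 79.4% of a member's 50-base windows occurred in the transcripts of no other gene, with 18.8% in Igkv3-6 at the low end and 27 members in which every window was its own. The 5 pairs below show how far segments can resemble each other, with different behaviour in all but the last pair. They were picked after the values were seen. The last 150 bases of each reference transcript (GENCODE M21, GRCm38), which lie in the V exon and end at the junction side, are written 5′ to 3′, with capitals for the bases that differ from the partner.

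The pair of family 17 differed at 3 of these bases. Igkv17-121 (chr6:68037169-68037318, plus strand) was all but restricted to BL/10, and Igkv17-127 (chr6:67861510-67861659, plus strand) did not pass the threshold.
Igkv17-121: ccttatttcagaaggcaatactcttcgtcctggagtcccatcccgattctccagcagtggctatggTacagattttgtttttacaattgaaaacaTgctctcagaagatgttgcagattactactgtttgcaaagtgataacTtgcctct
Igkv17-127: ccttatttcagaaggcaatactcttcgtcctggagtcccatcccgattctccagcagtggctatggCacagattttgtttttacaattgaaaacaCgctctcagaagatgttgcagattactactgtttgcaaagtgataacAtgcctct

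The pair of family 14 differed at 20 bases and went in opposite directions, Igkv14-111 (chr6:68256720-68256869, plus strand) being lower and Igkv14-126 (chr6:67896493-67896642, plus strand) higher in NOD.B10.
Igkv14-111: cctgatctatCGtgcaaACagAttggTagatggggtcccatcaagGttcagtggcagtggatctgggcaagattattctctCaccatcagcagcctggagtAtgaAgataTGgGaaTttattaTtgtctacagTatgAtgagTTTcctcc
Igkv14-126: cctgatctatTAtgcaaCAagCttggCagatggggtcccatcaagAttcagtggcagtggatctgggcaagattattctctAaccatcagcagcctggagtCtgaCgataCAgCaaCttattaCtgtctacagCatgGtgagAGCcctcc

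Segments of family 9 with opposite changes differed at 5 bases, Igkv9-120 (chr6:68050307-68050456, plus strand) being lower and Igkv9-124 (chr6:67942074-67942223, minus strand) higher in NOD.B10.
Igkv9-120: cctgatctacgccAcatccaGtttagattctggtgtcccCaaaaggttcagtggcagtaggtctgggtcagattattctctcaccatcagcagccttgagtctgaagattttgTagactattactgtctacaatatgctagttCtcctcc
Igkv9-124: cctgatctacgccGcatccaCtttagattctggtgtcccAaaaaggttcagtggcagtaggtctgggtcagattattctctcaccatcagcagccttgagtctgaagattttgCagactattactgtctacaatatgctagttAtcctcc

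The family 3 pair also differed at 5 bases, Igkv3-10 (chr6:70573081-70573230, plus strand) being higher in NOD.B10 and Igkv3-5 (chr6:70663746-70663895, plus strand) not past the threshold.
Igkv3-10: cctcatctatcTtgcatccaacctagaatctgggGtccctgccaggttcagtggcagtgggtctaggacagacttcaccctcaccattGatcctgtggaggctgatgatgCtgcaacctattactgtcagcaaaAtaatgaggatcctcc
Igkv3-5: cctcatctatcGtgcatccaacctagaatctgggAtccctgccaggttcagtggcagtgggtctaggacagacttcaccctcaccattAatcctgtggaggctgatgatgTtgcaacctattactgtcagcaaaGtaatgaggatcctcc

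The pseudogene Igkv4-56 (chr6:69587295-69587444, minus strand) and its closest segment, Igkv4-79 (chr6:69042972-69043121, minus strand), annotated as a V gene, differed at 12 bases and were both higher in NOD.B10.
Igkv4-56: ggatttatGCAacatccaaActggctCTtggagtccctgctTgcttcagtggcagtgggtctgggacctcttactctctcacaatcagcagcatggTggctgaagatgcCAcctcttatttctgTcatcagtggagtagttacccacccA
Igkv4-79: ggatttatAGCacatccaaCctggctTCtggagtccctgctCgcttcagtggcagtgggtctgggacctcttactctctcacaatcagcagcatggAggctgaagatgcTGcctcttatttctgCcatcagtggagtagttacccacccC

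The table is of raw read counts, and each library held between 15662712 and 18298451 counts. Levels are given as counts or as CPM (counts relative to library size, normalized by the trimmed mean of M values, TMM), with the SD over 3 libraries, and neither is divided by gene length. A count of 3 was taken as the floor of detection in a library, which covers counting error only. The B cell list (10 genes, among them Ms4a1 and Cd79a) took 0.398% to 0.536% of all counts in NOD.B10 and 0.282% to 0.530% in BL/10, and the spleens thus held B cell RNA in every library. Pancreas acinar genes took 1.30%, 0.191% and 0.0107% of the counts in BL/10 replicates 1, 2 and 3 and at most 0.00315% in NOD.B10. All 10 of these genes that were tested, of 13 listed, were lower in NOD.B10. Without BL/10 replicate 1, 2 or 3 the number of called Igkv members, 67 with all libraries, was 69, 63 or 62. Of all genes tested, 26.3%, 10.1% or 11.2% were then called, and 17.3% with all libraries.

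Igkv segments together were a larger share of the RNA in NOD.B10. They took 0.325%, 0.397% and 0.357% of all counts in NOD.B10 replicates 1, 2 and 3 and 0.307%, 0.208% and 0.229% in BL/10. The strains did not overlap, the means were 0.360% ± 0.0359 and 0.248% ± 0.0522 (SD, n = 3 each), and the ratio of means was 1.45. The exact permutation test (two-sided) gave p = 0.1, the smallest value that 3 libraries against 3 allow. BL/10 replicate 1, the BL/10 library labelled 26 weeks, was the highest of its strain and close to NOD.B10 replicate 1, and with the libraries of 26 weeks alone the difference of means was 0.0529 instead of 0.112 percentage points.

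Igkc was higher in NOD.B10, and there were fewer Igkv counts for each Igkc count. Igkc counts were 167317, 200218 and 198245 in NOD.B10 against 128053, 80445 and 105506 in BL/10, a log2 fold change of 0.87 (SE 0.16, edgeR quasi-likelihood test, adjusted p = 0.012). There were 0.320, 0.322 and 0.309 Igkv counts per Igkc count in NOD.B10 against 0.438, 0.404 and 0.389 in BL/10. The ratio was 0.317 ± 0.00688 (SD, n = 3) and 0.410 ± 0.0252 (SD, n = 3), lower in every NOD.B10 library than in every BL/10 library (exact permutation test, two-sided, p = 0.1, the smallest possible). Because the reference genome is that of C57BL/6J, a close relative of BL/10, a lower rate of placing NOD.B10 reads on Igkv segments and a lower level of their RNA cannot be told apart here or in any single segment below.

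**Figure D1:**
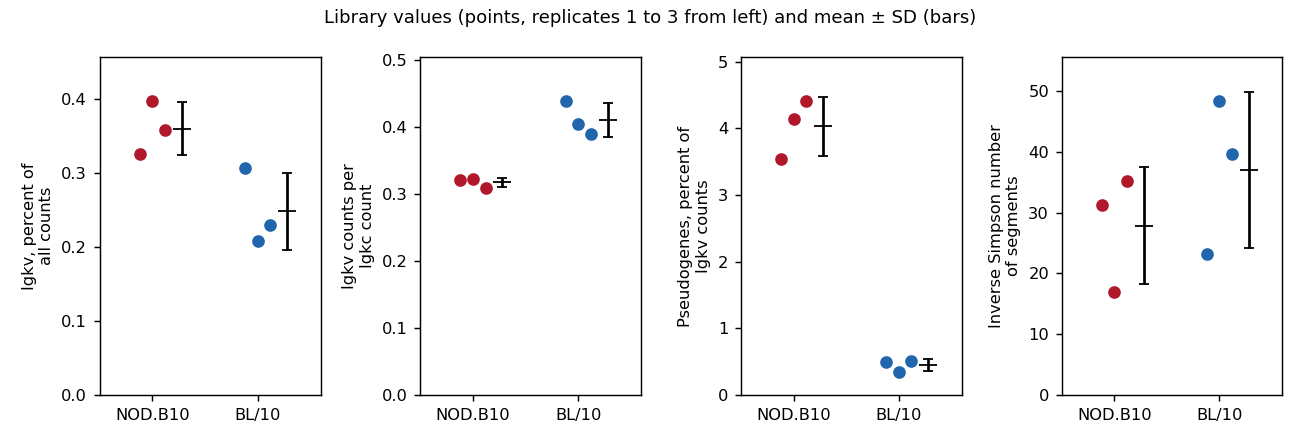
Library values of 4 measures for NOD.B10 and BL/10 (points, replicates 1 to 3 from left to right) with the mean ± SD at the right of each group: Igkv as a percent of all counts, Igkv counts per Igkc count, pseudogenes as a percent of Igkv counts, and the inverse Simpson number of segments. The strains are apart in the panels of Igkv share, Igkv to Igkc ratio and pseudogene share, and they overlap in the inverse Simpson number.

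Single segments differed between the strains in both directions. In the edgeR quasi-likelihood test over the whole table, with adjusted p under 0.05 as the threshold, 40 members were higher and 27 were lower in NOD.B10, or 54.0% of 124, where 17.3% of all 15330 genes tested were called. The background was 9.11% for genes higher and 8.22% for genes lower in NOD.B10. Another 42 members did not pass the threshold, and 15 had too few counts to be tested. With no filter on low counts, 48 members were higher and 30 lower, where 11.5% of all genes were called. The median log2 fold change in that fit over all 124 members was 0.49.

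The changes were large. A fold of at least 4 either way was found for 49 of the called members (30 higher and 19 lower), or 39.5% of 124, against 3.16% of all genes tested. All libraries of 1 strain were above all of the other for 75 members (60.5%), 46 with NOD.B10 above and 29 with NOD.B10 below, where the same held for 35.1% of all genes with at least 10 counts. Without each library in turn, between 57 and 69 members were called, where between 8.12% and 26.3% of all genes were. With the libraries labelled 26 weeks alone (3 NOD.B10 and 1 BL/10), fewer members and fewer of all genes were called.

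**Figure D2:**
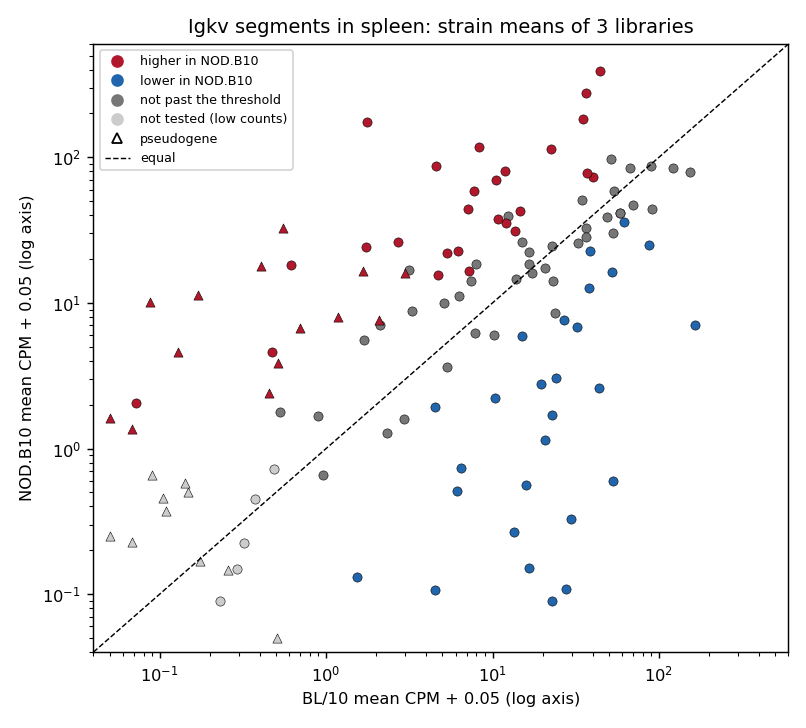
Mean TMM-normalized CPM of each Igkv member in NOD.B10 (vertical) against BL/10 (horizontal), both plus 0.05 on log axes, with 1 point per segment, triangles for pseudogenes and the dashed line for equal means. Higher (40) and lower (27) members lie far on both sides of the line, and the tested pseudogenes all lie above it.

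Members called higher held 61.9%, 65.9% and 57.2% of the Igkv counts in NOD.B10 against 10.4%, 17.4% and 15.8% in BL/10. Members called lower held 3.92% to 5.02% in NOD.B10 and 32.8% to 36.8% in BL/10. Segments were put into these groups by the same contrast, so the shares only describe how much of the kappa RNA the called segments make up. The rest, between 30.1% and 56.7%, was almost all on segments that did not pass the threshold.

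The order of the segments was shared by mice of 1 strain and differed between strains. Across the 124 segments, which share libraries and are not replicates, Spearman's rho between libraries was between 0.930 and 0.949 within NOD.B10, between 0.907 and 0.928 within BL/10 and between 0.478 and 0.558 for libraries of different strains. The share of Igkv counts that would have to move to another segment to make the libraries alike was between 20.9% and 34.4% within a strain and between 44.1% and 62.0% between strains.

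Among the 12 members with the highest mean CPM, 5 were higher in NOD.B10, 1 was lower and 6 did not pass the threshold. Igkv14-126 had the highest mean of all, with 2654, 11366 and 5671 counts in NOD.B10 against 442, 939 and 804 in BL/10 (log2 fold change 3.15, SE 0.57, adjusted p = 0.0099, edgeR). Its lowest NOD.B10 library was above all BL/10 libraries, and NOD.B10 replicate 2 alone gave 17.6% of its Igkv counts to this segment (95% Wilson interval 17.3% to 17.9%). Its log2 fold change was 2.44 without that library. With the libraries of 26 weeks alone it was 4.03 and no longer passed (adjusted p = 0.053).

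Igkv1-132 was nearly a NOD.B10 segment. It had 4316, 1562 and 3057 counts in NOD.B10 against 18, 40 and 26 in BL/10 (log2 fold change 6.70, SE 0.49, adjusted p = 0.00018), and it was the most counted segment of NOD.B10 replicate 1, with 8.06% of Igkv counts. Its closest segment, Igkv1-131, at 95.3% identity, was higher as well, with a log2 fold change of 4.94.

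Of the abundant segments of family 12, Igkv12-46 had 4047, 7969 and 1664 counts in NOD.B10 against 459, 407 and 993 in BL/10 (log2 fold change 2.92, SE 0.60, adjusted p = 0.016). Igkv12-44 had 3875, 3614 and 1694 against 724, 627 and 405 (log2 fold change 2.40, SE 0.37, adjusted p = 0.0048). For both, NOD.B10 replicate 3 was the lowest of its strain and still above BL/10. The call of Igkv12-46 was lost without BL/10 replicate 2 (log2 fold change 2.76, adjusted p = 0.064), and its log2 fold change was 2.21 without NOD.B10 replicate 2. With the libraries of 26 weeks alone neither segment passed the threshold, at log2 fold changes of 3.46 and 2.22 (adjusted p = 0.093 and 0.063).

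Igkv4-53 had 1885, 1950 and 1908 counts in NOD.B10 against 432, 226 and 508 in BL/10 (log2 fold change 2.33, SE 0.21, adjusted p = 0.00047). Igkv14-111 was the abundant segment lower in NOD.B10. It had 155, 74 and 129 counts there and 5565, 1496 and 1644 in BL/10 (log2 fold change -4.56, SE 0.54, adjusted p = 0.0017), and it was the most counted segment of BL/10 replicate 2, with 4.60% of Igkv counts. Without BL/10 replicate 1 its log2 fold change was -3.79 and still passed. All 50-base windows of Igkv14-111 and of its closest segment, Igkv14-126, occurred in no other gene.

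The other abundant segments did not pass the threshold. Igkv1-135 had 1559, 1126 and 1742 counts in NOD.B10 against 1750, 1002 and 1844 in BL/10 (log2 fold change -0.04, SE 0.19, adjusted p = 0.91), and Igkv10-96 had 1437, 1046 and 1801 against 1210, 880 and 1318 (0.33, SE 0.17, adjusted p = 0.21). Igkv8-24 had 900, 1419 and 2725 counts in NOD.B10 against 744, 1051 and 758 in BL/10 (0.94, SE 0.37, adjusted p = 0.12), a difference that passed in DESeq2 (adjusted p = 0.044).

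In 3 further abundant segments BL/10 replicate 1 stood far above the other libraries of its strain. Igkv6-15 had 6015 counts in it against 813 and 1437 in the other BL/10 libraries and 866, 1925 and 1201 in NOD.B10. Igkv3-4 had 5414 against 587 and 540, with 1399, 1171 and 1749 in NOD.B10, and Igkv3-2 had 3613 against 765 and 449, with 758, 522 and 973. None of them passed the threshold in the full comparison (log2 fold changes -0.96, -0.52 and -1.05). Without BL/10 replicate 1 Igkv3-4 was higher in NOD.B10 (log2 fold change 1.26, adjusted p = 0.0025), and with that library as the only BL/10 library, under the 26-week labels, Igkv6-15, Igkv3-4 and Igkv3-2 were lower (log2 fold changes -2.05, -1.80 and -2.16, adjusted p = 0.027, 0.0017 and 0.0039). The direction of these segments therefore depends on 1 library.

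**Figure D3:**
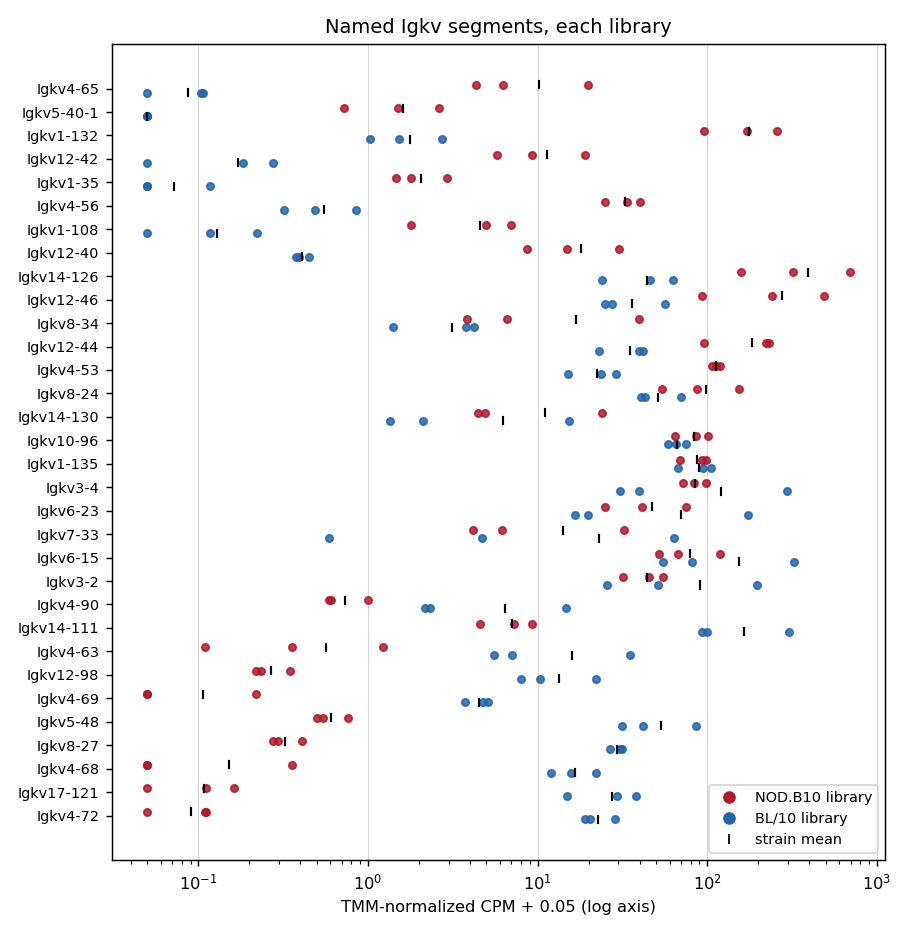
TMM-normalized CPM plus 0.05 on a log axis for the named Igkv segments in each library (red, NOD.B10, and blue, BL/10) with the strain mean as a black bar, ordered by log2 fold change. The segments at the top have NOD.B10 libraries well above BL/10, those at the bottom the reverse, and Igkv3-4, Igkv6-15, Igkv6-23 and Igkv7-33 in the middle each have a single BL/10 library far to the right.

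Several segments were present in 1 strain and at or under the floor in the other. At least 10 counts in each BL/10 library and at most 3 in each NOD.B10 library were found for 4 members, where 0.298% of all genes met this rule. Igkv17-121 had 0, 1 and 2 counts in NOD.B10 against 542, 221 and 669 in BL/10, at least 155-fold lower in NOD.B10. Igkv4-72 had 1, 1 and 0 against 372, 284 and 502, at least 127-fold lower. Igkv4-69 (0, 0 and 3 against 93, 55 and 83) was at least 25.3-fold lower and Igkv4-92 (3, 1 and 0 against 23, 20 and 33) at least 8.39-fold lower, both taken against the floor in each library. By contrast, Igkv17-127, which shares 97.5% of its bases with Igkv17-121, had 298, 302 and 211 counts in NOD.B10 against 386, 272 and 218 in BL/10 (log2 fold change -0.10, SE 0.23, adjusted p = 0.80).

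Further segments were almost absent from NOD.B10. Igkv8-27 had 6, 4 and 4 counts there and 490, 456 and 551 in BL/10 (log2 fold change -6.70, SE 0.19, adjusted p = 2.94e-06). Igkv5-48 had 12, 8 and 8 against 575, 1289 and 737 (log2 fold change -6.57, SE 0.51, adjusted p = 0.00023), and all of its 50-base windows were its own. Igkv4-68 had 0, 5 and 0 against 408, 234 and 210, and Igkv12-98 had 5, 3 and 3 against 146, 327 and 182. Igkv4-63 varied more, with 1, 5 and 21 against 129, 524 and 97 counts (log2 fold change -4.88, SE 1.01, adjusted p = 0.016), and its call was lost without NOD.B10 replicate 1 (adjusted p = 0.066) or replicate 2 (adjusted p = 0.054), at log2 fold changes of -4.37 and -4.62. It was -6.37 without NOD.B10 replicate 3 and -3.56 without BL/10 replicate 2.

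In the other direction, at least 10 counts in each NOD.B10 library and at most 3 in each BL/10 library were found for 6 members, where 0.467% of all genes met this rule. Of these, 5 are annotated as pseudogenes. Igkv4-65 had 72, 322 and 110 counts in NOD.B10 against 1, 0 and 1 in BL/10, at least 56.6-fold higher, and Igkv1-108 had 29, 112 and 88 against 0, 1 and 3, at least 25.4-fold higher. Igkv5-40-1 (43, 11 and 26 against 0, 0 and 0), Igkv1-115 (10, 33 and 23 against 1, 0 and 0) and Igkv9-128 (10, 11 and 10 against 1, 1 and 0) were at least 8.81-fold, 7.33-fold and 3.43-fold higher, the last of them with too few counts to be tested. The V gene among the 6 was Igkv1-35, with 48, 23 and 31 counts against 0, 1 and 0, at least 11.3-fold higher. With the libraries of 26 weeks alone, Igkv4-65 and Igkv5-40-1 no longer passed (adjusted p = 0.069 and 0.072), at fitted log2 fold changes of 7.35 and 7.77 instead of 7.76 and 7.74.

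Pseudogene segments took a larger share of Igkv counts in every NOD.B10 library than in any BL/10 library. They had 1899, 2671 and 2702 counts in NOD.B10 against 279, 112 and 207 in BL/10, which was 3.55%, 4.14% and 4.41% of Igkv counts against 0.497%, 0.344% and 0.504%. The means were 4.03% ± 0.441 and 0.449% ± 0.0903 (SD, n = 3 each), with no overlap (exact permutation test, two-sided, p = 0.1, the smallest possible). This measure was chosen after the values were seen. Pseudogene status is that of the reference genome, and the NOD.B10 alleles were not examined. Reads of other NOD.B10 segments placed on pseudogenes cannot be told apart from pseudogene RNA. Without the most abundant pseudogene the difference of means was 2.66 percentage points instead of 3.58. NOD.B10 was above BL/10 in every library for 19 of the 24 pseudogenes, below for 1 and overlapping for 4, where the strains were apart in 35.1% of all genes. This count too is a description only, because 13 of the 24 had under 10 counts in the BL/10 libraries together and would not be members without those of NOD.B10.

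In the fit with no filter on low counts, 16 of the 24 pseudogenes were higher and 1 was lower, where 11.5% of all genes were called. That count is also only a description, because 13 of the 24 were members only through their NOD.B10 counts. With the filter, 14 were tested and called higher, but a pseudogene that is near 0 in BL/10 passed the filter only through its NOD.B10 libraries, so that count by itself is no evidence. The pseudogene with the opposite pattern was Igkv2-107, which had 9, 3 and 12 counts in BL/10 and none in NOD.B10.

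The most counted pseudogene was Igkv4-56, with 565, 404 and 710 counts in NOD.B10 against 8, 4 and 14 in BL/10 (log2 fold change 5.99, SE 0.32, adjusted p = 4.54e-05). Of its 50-base windows, 92.0% were in no other gene. Igkv12-40 had 144, 493 and 263 counts against 6, 6 and 6, and Igkv12-42 had 96, 309 and 165 against 0, 2 and 4 (log2 fold changes 5.63 and 6.50). Without NOD.B10 replicate 2 they were 5.02 and 5.91, and that of Igkv12-42 was 5.88 without BL/10 replicate 1 and 7.38 without BL/10 replicate 3. NOD.B10 replicate 2 was the highest for both, as it was for Igkv12-46, the abundant V gene of that family. Read from the first ATG of the reference transcript, 18 of 24 pseudogenes met an in-frame stop and 6 did not, among them Igkv4-56, whereas 94 of 100 V genes read through without one. Of the 14 pseudogenes called higher, 9 met a stop and 5 did not.

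The V genes alone, without the pseudogenes, were split evenly. Of 100, 26 were higher, 27 lower, 42 not past the threshold and 5 not tested, and with no filter 32 were higher and 29 lower, with a median log2 fold change of -0.14.

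Families, given by the first number of the symbol, differed in how their members moved. The background for the counts by family was 9.11% of all genes tested for higher and 8.22% for lower. Family 4 is the largest, with 33 members, of which 12 were higher and 13 lower, and yet its share of Igkv counts was 11.2% to 11.9% in NOD.B10 and 11.96% to 12.2% in BL/10. Family 12 had 7 of 12 members higher and 2 lower and took 17.0%, 21.7% and 8.31% of Igkv counts in NOD.B10 against 4.04%, 6.80% and 5.48% in BL/10. Family 1 had 8 of 12 members higher and 1 lower, with shares of 19.6%, 9.62% and 15.3% against 7.36%, 11.2% and 11.8%, which overlapped.

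Family 8 had no member higher and 3 of 12 lower, with shares 5.43% to 8.19% in NOD.B10 and 9.36% to 13.3% in BL/10. The small family 13, with 2 of 3 members lower, took 0.965% to 1.61% of Igkv counts in BL/10 and 0.0504% to 0.184% in NOD.B10. Family 5, with 2 of 6 members higher and 2 lower, took 3.25% to 5.30% in NOD.B10 and 5.47% to 9.76% in BL/10. Family 17, made of the pair printed above, took 0.347% to 0.557% in NOD.B10 and 1.52% to 2.16% in BL/10. The 3 members of family 10 did not pass the threshold, and its shares were 2.15% to 4.06% in NOD.B10 and 3.65% to 4.72% in BL/10.

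**Figure D4:**
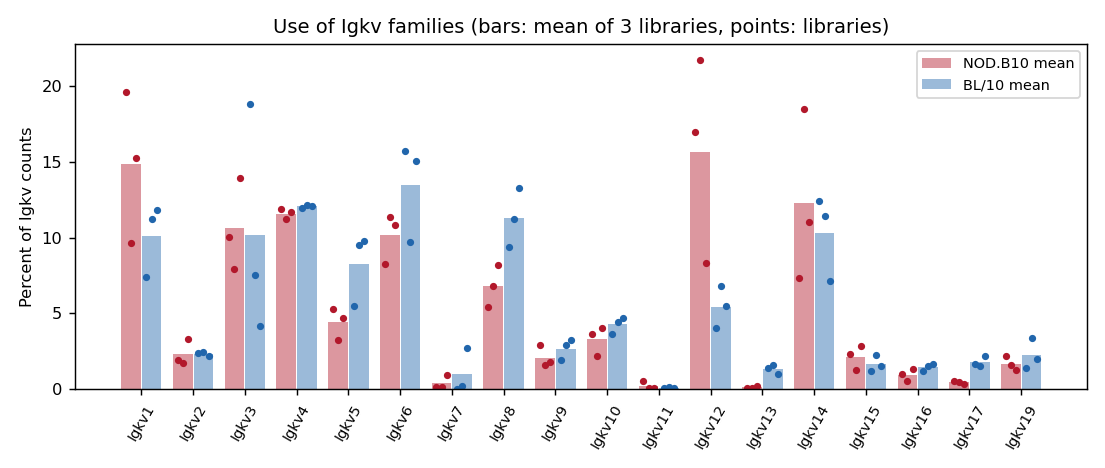
Percent of Igkv counts taken by each Igkv family (families under 0.1% in both strains left out), with bars for the mean of 3 libraries and points for the libraries of NOD.B10 (red) and BL/10 (blue). Family 12 is higher in NOD.B10, families 5, 8, 13 and 17 are higher in BL/10, and family 4 is at 11.2% to 12.2% in all libraries.

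Higher and lower segments were interspersed along the locus. Of 66 neighbouring pairs of called members, 26 had opposite directions, and the longest runs in 1 direction were of 7 higher and 5 lower members. In the 500 kb nearest to Igkc, 5 of 21 members were higher and 1 lower, and 13 did not pass. Between 1000 and 1500 kb, 8 of 23 were higher and 10 lower, and between 2500 and 3000 kb 7 of 18 were higher and 3 lower. Of the members on the plus strand, 13 of 46 were higher and 7 lower, and of those on the minus strand 27 of 78 were higher and 20 lower. The background for these counts and those by position was 9.11% for higher and 8.22% for lower.

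**Figure D5:**
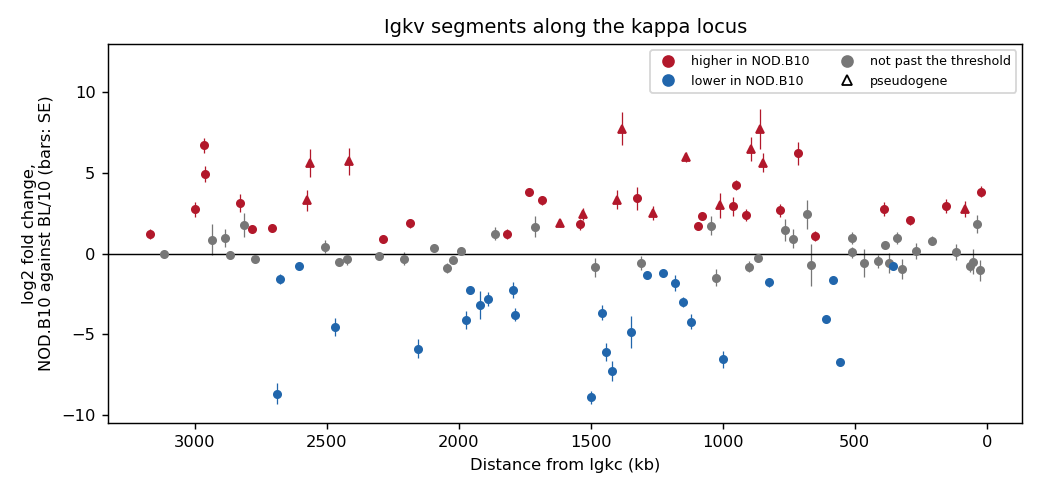
Log2 fold change of each tested Igkv member (NOD.B10 against BL/10, bars showing the SE) by its distance in kb from Igkc, with triangles for pseudogenes. Higher (red) and lower (blue) members occur together over much of the locus, though with 5 higher and 1 lower within 500 kb of Igkc, and most members within 500 kb of Igkc are not past the threshold.

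The calls were compared with how unique each segment is. Of the 27 members whose 50-base windows all were in no other gene, 5 were higher, 7 lower, 10 not past the threshold and 5 not tested. Of the 18 members with under 50% of such windows, 6 were higher, 4 lower, 6 not past the threshold and 2 not tested. The background for both counts was 9.11% of all genes tested for higher and 8.22% for lower. There were 30 pairs of segments that were each other's closest, and 21 of them were at least 95% identical. Both segments were tested in 18 of these, of which 6 pairs had the same call, 12 had different calls and 1 of the 12, Igkv9-120 and Igkv9-124, had opposite calls.

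Igkv9-120 had 250, 238 and 142 counts in NOD.B10 against 500, 507 and 918 in BL/10 (log2 fold change -1.60, SE 0.30, adjusted p = 0.012), whereas Igkv9-124 had 946, 510 and 704 against 238, 287 and 208 (1.54, SE 0.26, adjusted p = 0.0070). Igkv3-10 had 416, 1233 and 1352 counts against 191, 111 and 91 (2.94, SE 0.45, adjusted p = 0.0049), and Igkv3-5 had 46, 144 and 112 against 229, 104 and 194 (-0.77, SE 0.39, adjusted p = 0.20). The pair Igkv5-43 and Igkv5-45, at 98.4% identity, parted as well. Igkv5-45 had 1827, 1036 and 1563 against 55, 97 and 73 counts (4.27, SE 0.31, adjusted p = 0.00016), while Igkv5-43 had 464, 331 and 746 against 705, 652 and 1340 (-0.81, SE 0.32, adjusted p = 0.12). Only 49.1% of the windows of Igkv5-45 and 48.8% of those of Igkv5-43 were their own. Reads of NOD.B10 alleles that were placed on a near copy, or not placed, cannot be told apart from use of another segment in such pairs.

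Igkv segments varied more between mice of 1 strain than other genes did. The median biological coefficient of variation (the spread between libraries beyond counting error) of tested members was 31.6%, with a range from 12.3% to 107%, against 13.5% for all genes tested. The coefficient of variation of CPM had a median of 35.6% over members in NOD.B10 and 39.1% in BL/10, against 9.62% and 12.9% for all genes.

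The members whose highest library stood farthest from the others of its strain did not all have it in the same mouse. BL/10 replicate 3 had 1119 counts of Igkv7-33, where the other BL/10 libraries had 10 and 69, and 3054 counts of Igkv6-23, where they had 304 and 295. NOD.B10 had 69, 99 and 571 counts of Igkv7-33 and 415, 1221 and 737 of Igkv6-23, so both overlapped between strains and neither passed the threshold (log2 fold changes -0.70 and -0.57). Igkv6-23 was the most counted segment of BL/10 replicate 3, with 7.44% of Igkv counts (95% Wilson interval 7.19% to 7.70%).

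BL/10 replicate 2 had 227 counts of Igkv14-130 against 38 and 23, and 220 counts of Igkv4-90 against 39 and 40. Igkv14-130 had 399, 79 and 78 in NOD.B10 and overlapped, and Igkv4-90 had 9, 9 and 17 and was lower in NOD.B10 (log2 fold change -3.18, SE 0.88, adjusted p = 0.045), a call that was lost without any 1 of the NOD.B10 replicates (log2 fold changes -3.50 to -3.04, adjusted p = 0.11 to 0.14) and stood at -1.67 without BL/10 replicate 2. NOD.B10 replicate 2 had 648 counts of Igkv8-34 against 63 and 116, with 77, 56 and 24 in BL/10 (log2 fold change 2.43, adjusted p = 0.10).

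How evenly the segments were used did not differ beyond the spread between mice. The inverse Simpson number, the count of equally used segments that would give the same evenness, was 31.3, 17.0 and 35.3 in NOD.B10 against 23.1, 48.3 and 39.6 in BL/10 (27.8 ± 9.62 and 37.0 ± 12.8, SD, n = 3 each, exact permutation test, two-sided, p = 0.4). The 10 most counted segments of each library took 46.3%, 53.5% and 41.3% of Igkv counts in NOD.B10 against 51.3%, 33.7% and 39.0% in BL/10 (exact permutation test, two-sided, p = 0.4). NOD.B10 replicate 2 and BL/10 replicate 1 were the least even libraries. With the libraries of 26 weeks alone the difference of the inverse Simpson numbers changed sign to 4.70.

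Of the other light chain genes of the kappa and lambda loci, 2 of 13 were higher and 1 lower. Of all genes tested, 9.11% were higher and 8.22% lower. The J kappa segments, which supply the end of the variable exon, had few counts. Igkj1 had 97, 102 and 160 counts in NOD.B10 against 62, 27 and 38 in BL/10 (log2 fold change 1.51, SE 0.28, adjusted p = 0.010), and Igkj4 had 12, 11 and 10 against 59, 22 and 31 (log2 fold change -1.73, SE 0.36, adjusted p = 0.017). Igkj2, Igkj3 and Igkj5 did not pass (log2 fold changes 0.12, 0.55 and 0.88). The lambda genes did not pass either, with log2 fold changes from -0.15 for Iglc4 to 1.38 for Iglv3. Iglv3 had 941, 1302 and 5473 counts in NOD.B10 against 1267, 745 and 907 in BL/10 (adjusted p = 0.14), and NOD.B10 replicate 3 stood apart. Among heavy chain variable segments, by symbol, 28 of 126 were higher in NOD.B10 in edgeR, of 97 tested, beside 9.11% of all genes. The number lower was 0 in edgeR, with 4 at an unadjusted p under 0.05, and 2 in DESeq2.

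Of the recombination genes, Rag1 and Dntt were lower in NOD.B10. Rag1, part of the enzyme that joins V to J, had 4, 5 and 8 counts against 126, 297 and 179 (log2 fold change -5.16, SE 0.53, adjusted p = 0.00082), and Dntt, which adds bases at the joints, had 21, 11 and 34 against 83, 128 and 82 (log2 fold change -2.18, SE 0.40, adjusted p = 0.010). They were the 2 lower of the 7 genes listed, of which 3 were tested, beside 8.22% of all genes tested. Igll1, a surrogate light chain gene of B cell precursors, had 0, 0 and 0 counts against 10, 85 and 37 and was not tested, and Vpreb3 did not pass (log2 fold change -0.43).

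Of 12 listed plasma cell genes, 7 were higher in NOD.B10 and none was lower. For comparison with this and the lists below, 9.11% of all genes tested were higher and 8.22% lower. Among the plasma cell genes not past the threshold, Tnfrsf17 and Sec11c had negative log2 fold changes (-0.26 and -0.11). Xbp1, a regulator of secretion, had a log2 fold change of 0.63 (adjusted p = 0.0069), Sdc1, a plasma cell surface protein, of 0.81 (adjusted p = 0.011), and Jchain, which joins IgM and IgA units, of 0.56 (adjusted p = 0.034). The list took 0.411%, 0.463% and 0.457% of counts in NOD.B10 against 0.337%, 0.287% and 0.264% in BL/10, with Jchain present in every library at 29301 counts or more. The 10 B cell genes did not pass in edgeR, with log2 fold changes from 0.07 for Ms4a1 to 0.56 for Fcer2a, all of them positive, and neither did the 5 germinal center genes that were tested. Of 17 regulators of kappa transcription, Irf4 was higher (0.53, SE 0.15, adjusted p = 0.043) and 16 did not pass, among them Pou2af1 (-0.02) and Pax5 (0.17). Of the markers of other cells, 6 of 7 T cell genes were higher, all 7 neutrophil genes were lower, and 1 of 6 erythroid genes was lower. The plasma cell share, like the summed Igkv share, was higher in every NOD.B10 library than in every BL/10 library. Between BL/10 replicates 2 and 3 these shares went opposite ways. The plasma cell share was 0.287% and 0.264%, and the Igkv share 0.208% and 0.229%. Most of the plasma cell share was Jchain, and genes of the list moved both ways between these 2 libraries. Jchain had 2023 and 1665 CPM, and Xbp1 had 153 and 177. The part of cell makeup in the differences of single segments was not tested.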

How the data were processed

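RNA of 6 spleens (TruSeq libraries, 50-base single reads) was measured, 3 per strain. The authors deposited raw counts of reads on each gene without normalizing them. Per the file header, reads were counted on exons by featureCounts version 1.5.1 with Ensembl 84 and no strand or multi-mapping option, so reads placed on several genes were not counted. The paper names Tophat2 and mm10, and the submitters' processing notes name HISAT2 version 2.0.5 and GRCm38. The table also holds gene length, deposited as other information and not used for levels. Libraries of Myd88-deficient mice that the counting command lists were not used here. Of 47729 identifiers, 47224 matched a symbol in GENCODE M21.

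Counts were fitted over the whole table with R version 4.3.3 and edgeR version 4.0.16 (filterByExpr, TMM, quasi-likelihood test, Benjamini-Hochberg adjusted p under 0.05, BL/10 as reference). In simulated counts of 15159 genes for this comparison, 195 of 200 changed genes were found, with 13 false calls. Every simulated gene had the same spread, smaller than the Igkv median of 31.6%, so recovery among Igkv members was not tested. Library measures were compared by exact permutation tests. The pairs of replicates differed by more than sampling noise. Named genes were the 12 members of highest mean CPM, up to 8 in each direction ranked by log2 fold change among those called with at least 10 counts in each library of the higher strain, the 6 with the largest ratio of 1 library to the median of the others of its strain (at least 100 counts), and genes of the lists. Igkv9-128, Igkv1-115, Igkv4-92, Igkv2-107 and the members of printed or compared pairs were named in addition, after their values were seen. The members and lists were chosen with earlier results of these data known. Alternatives were DESeq2 version 1.42.0, other scalings and filters, a replicate block, each library left out, and the 26-week libraries alone. Recombination signals and promoters were not analysed here. Same-numbered replicates are not said to be paired, and their deviations correlated at 0.03, 0.17 and -0.08, so the numbers were taken as names only.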

Additional observations from a re-analysis of the deposited data

How the results depend on the processing

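Of the 67 called members, 0 changed direction under any alternative, but not all of them kept the call. Between 56 and 63 kept it with 1 library left out, and 63 under the replicate block. DESeq2 called 77, the fit with no filter 78, and RLE, upper-quartile or scaling without immunoglobulin, hemoglobin and pancreas acinar genes 67. At least 10 counts in every library left 41 called (25 higher and 16 lower) and kept 6 of the 22 named calls, since segments near 0 in 1 strain are then not tested. Libraries labelled 26 weeks called fewer members, some of them outside the 67, with the lone BL/10 library assumed to vary like the rest. They gave an Igkv share difference of 0.0529 percentage points. They turned the differences of the inverse Simpson number to 4.70 and of the 10-segment share to -4.29 percentage points. Leaving out 1 library gave 57 to 69 called, 36 to 41 higher and 21 to 28 lower, where 8.12% to 26.3% of all genes were called. The Igkv share differences were then 0.0918 to 0.141 percentage points, and the inverse Simpson differences -16.2 to -3.55. The replicate block, fitted although the numbers pair nothing, called 65 (38 higher and 27 lower). Signs turned only for uncalled segments. With the replicate block, Igkv7-33, Igkv6-23 and Igkv3-4 had log2 fold changes of 0.15, 0.15 and 0.28. With 26-week libraries Igkv7-33 and Igkv6-23 had 4.69 and 1.51. With each library left out in turn, the log2 fold change ran from -2.17 to 2.50 for Igkv7-33, -1.08 to 1.37 for Igkv6-23, -0.996 to 1.26 for Igkv3-4, -1.37 to 0.21 for Igkv6-15, -1.51 to 0.19 for Igkv3-2, -0.40 to 2.69 for Igkv14-130 and -0.21 to 0.10 for Igkv1-135. The cause of these turns was not tested beyond the library left out. Depth limits the 15 members not tested. The 50-base windows were compared in the reference transcripts only. How reads of NOD.B10 alleles were placed was therefore not tested for any member, including the 27 whose windows were all their own.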
